A study of Rattus norvegicus with 11 samples.

Results

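Bladder tissues of rats with partial bladder outlet obstruction (PBOO) were compared with normal bladder tissues at week 4 by RNA sequencing, in 6 of the 11 samples of the study. The 3 PBOO samples and the 3 normal samples were chosen by their labels, and no value was used to choose them. The rats were female Sprague-Dawley animals of about 0.5 years. In the PBOO rats, a suture was tied around the bladder neck and the urethra over a catheter, and the catheter was then withdrawn, so that the outlet was narrowed. The rats labelled normal had their abdominal wall opened and closed without a tie. No transgene and no treatment by an agent is given for either group. The study calls the samples biological replicates, but the labels do not tie them to animals, and the p-values below measure only the spread between these samples. The files list 18507 genes, of which 11320 averaged 0.5 FPKM or more in the 6 samples and were tested. A further 4871 genes were listed at 0 in all 6 samples, and 2316 lay under this minimum. The genes at 0 include Col6a1, Krt7 and Dsp. Whether a 0 stands for no RNA or for a gene left uncounted was not tested.

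The bladder wall holds a lining epithelium, the urothelium, on a layer of connective tissue with fibroblasts, vessels and nerve endings, and an outer coat of smooth muscle, the detrusor. The detrusor contracts when nerves release acetylcholine and ATP onto muscarinic and P2X receptors, and it relaxes during filling through beta adrenergic receptors. When the outlet is narrowed, the muscle has to empty against a higher pressure. The wall of an obstructed bladder is in general known to thicken with larger muscle cells and more connective tissue. For PBOO rats at the week sequenced here, the study reports thicker muscle fibres but a smaller stained area of collagen than in controls. The values below are of RNA and do not measure this area.

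Expression is given as FPKM, the number of sequenced fragments per length of exon and per total fragments mapped, as the authors computed it. Fold changes are differences of log2(FPKM + 0.1), PBOO minus normal, which understates the change of low genes. A gene is said to have risen or fallen where limma gave an unadjusted p under 0.05 and the change was at least 2-fold. By this rule, 278 genes (2.46% of those tested) rose and 277 (2.45%) fell. With the adjusted p in place of the unadjusted one, 42 genes (0.371%) passed, and the smallest adjusted p was 0.0478. Every PBOO sample lay above every normal sample in 750 genes (6.63%) and below every normal sample in 3956 genes (34.9%). Since whole tissue was sequenced, fewer cells of a type and less RNA per cell cannot be told apart in any of these values. Over all genes tested, the log2 fold changes had a median of -0.25. The 10 highest genes took 9.4% to 9.7% of the summed FPKM in normal samples and at least 13.7% in each PBOO sample. After median-ratio scaling, which moved the median of all genes to -0.01, 409 genes (3.61%) rose and 121 (1.07%) fell, and after quantile normalization 365 and 147. The direction of a small decrease therefore depends on this choice, and the scaled value is given for decreases that scaling took out of the thresholds. Fits that left out 1 sample are named by that sample, with the log2 fold change of that fit in brackets.

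**Figure D1:**
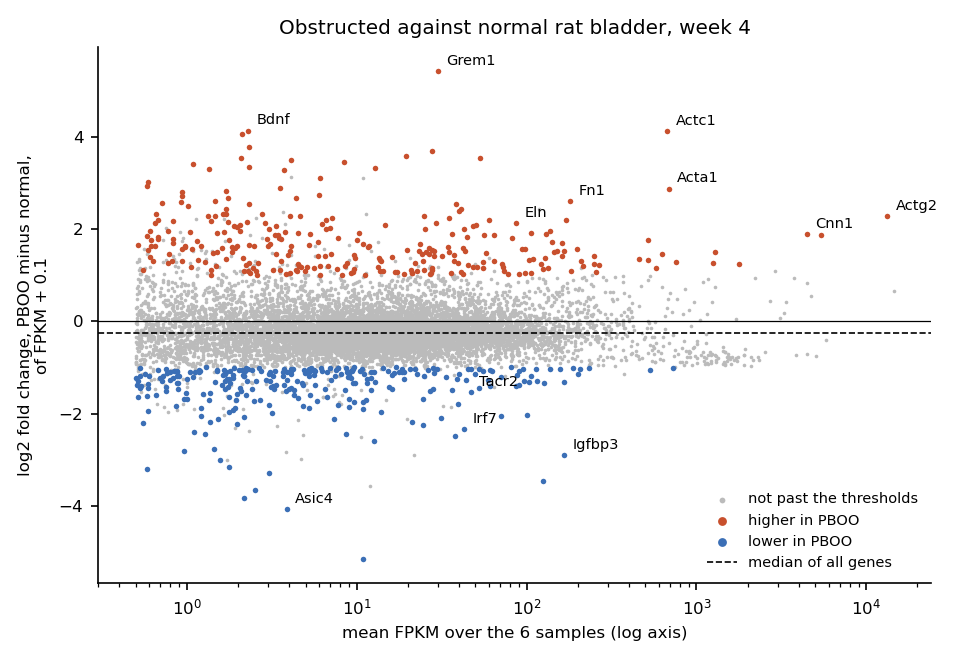
Each point is 1 of the 11320 genes, with its mean FPKM over the 6 samples on a log axis and its log2 fold change, PBOO minus normal, on the other. The dashed line is the median of all genes, at -0.25, and most of the most abundant genes lie below it, whereas Actg2 stands out at the right with a log2 fold change of 2.27.

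Individual libraries stood apart before any comparison. Normal 1 correlated with normal 2 and normal 3 at Pearson's r of 0.955 and 0.953 across genes, while normal 2 and normal 3 correlated at 0.986. Macrophage and dendritic marker genes summed to 211 FPKM in normal 1 and to 1032 and 1092 FPKM in normal 2 and normal 3, and red blood cell genes to 57.9, 1098 and 1391 FPKM. In the PBOO samples, the macrophage sums were 797, 1116 and 1299 FPKM. Normal 2 held 3625 FPKM of interferon response genes, against 1509 and 1590 FPKM in the other normal samples. PBOO 3 was the farthest of the PBOO samples from the normal samples, with r of 0.896 to 0.930 to them, and PBOO 1 the nearest, with r of 0.950 to 0.962. Without PBOO 1, the share of genes that rose was 3.42% and the share that fell 5.63%. Without PBOO 2, the shares were 1.80% and 2.32%, and without PBOO 3, 1.52% and 1.59%. Leaving out normal 1, normal 2 or normal 3 gave 1.97%, 2.42% or 2.45% of genes that rose and 3.03%, 2.00% or 2.23% that fell.

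The label of the tissue was borne by its markers in all 6 samples. The uroplakin genes Upk1a and Upk2, of the plaques that cover the urothelium, lay between 731 and 1655 FPKM. Myh11, the smooth muscle myosin heavy chain, lay between 2073 and 3380.2 FPKM. The Y-linked gene found above 0 stayed at or under 0.338 FPKM in every sample, and the rats were female by the methods.

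The largest increases in PBOO bladder tissues were of a bone morphogenetic protein antagonist, a neurotrophin and a cardiac actin. Grem1, which binds and blocks bone morphogenetic proteins, was at 2.74, 0.671 and 0.7999 FPKM in normal and 28.8, 61.7 and 86.6 FPKM in PBOO samples. Bdnf, a neurotrophin that binds the receptor Ntrk2, was at 0.261, 0.0470 and 0.0310 FPKM in normal and at 0.988, 3.89 and 8.57 FPKM in PBOO samples. Actc1, the actin of heart muscle, went from 54.2, 65.6 and 59.6 FPKM to 413, 1213 and 2244 FPKM. In all 3 genes the groups did not overlap, and PBOO 3 was the highest and PBOO 1 the lowest of the PBOO samples. The log2 fold changes were 5.42 for Grem1 (SE 0.58, limma adjusted p = 0.0478), 4.13 for Bdnf (SE 0.80, limma adjusted p = 0.0541) and 4.12 for Actc1 (SE 0.55, limma adjusted p = 0.0483). The normal levels of Bdnf are near the pseudocount, so its fold is uncertain. Ntrk2 itself, at 0.965, 1.34 and 1.97 FPKM in normal and 1.46, 0.999 and 0.946 FPKM in PBOO samples, had overlapping groups and an adjusted p of 0.584 in limma. The study places Ntrk2 in the bladder mainly on smooth muscle and interstitial cells.

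Other genes among the 15 largest increases encode proteins of the matrix and of the cell skeleton. Thbs4, a thrombospondin of the matrix, was at 2.65, 2.81 and 1.82 FPKM in normal and 6.65, 47.3 and 106 FPKM in PBOO samples (log2 fold change 3.70, SE 0.91, limma adjusted p = 0.0718). Cilp, a matrix protein known from cartilage and heart, was at 5.11, 7.77 and 11.2 FPKM and 57.7, 77.4 and 161 FPKM and passed the adjusted threshold (log2 fold change 3.53, SE 0.42, limma adjusted p = 0.0483). Neither gene had an overlap between groups, but in Thbs4 PBOO 1 was far nearer to the normal samples than the other PBOO samples were. The same spread was seen in Ltbp2, a latent TGF-beta binding protein of elastic fibres, with 0.391, 0.453 and 0.352 FPKM in normal and 1.64, 6.22 and 15.7 FPKM in PBOO samples. Diaph3, a formin that builds actin filaments, went from 0.298, 0.528 and 0.445 FPKM to 1.55, 5.03 and 14.4 FPKM. Nptx2, a pentraxin best known from synapses, went from 2.91, 1.23 and 2.27 FPKM to 10.1, 27.9 and 32.8 FPKM. The log2 fold changes of Ltbp2, Diaph3 and Nptx2 were 3.49, 3.27 and 3.32 (limma adjusted p = 0.058, 0.0633 and 0.0503). Also among the 15 were Cpne9, Aoc1, Gsta2, Camk2n2 and Cpa4, all under 1 FPKM in every normal sample, with log2 fold changes from 3.31 for Cpa4 to 4.07 for Cpne9. Cpne9, Cpa4 and Gsta2 were each listed at 0 in at least 1 normal sample.

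Among genes that averaged 1 FPKM or more and did not overlap between groups, the 3 largest decreases were of Asic4, Car7 and Mboat7l1. Asic4, of the acid-sensing ion channel family, was at 9.20, 7.36 and 5.40 FPKM in normal and at 0.310, 0.855 and 0.101 FPKM in PBOO samples (log2 fold change -4.08, SE 0.56, limma adjusted p = 0.0483). Igfbp3, a carrier of insulin-like growth factors, was at 131, 349 and 375 FPKM in normal and at 108, 21.3 and 18.0 FPKM in PBOO samples (log2 fold change -2.90, SE 0.72, limma adjusted p = 0.0733). The groups did not overlap in either gene, but the Igfbp3 of PBOO 1 was close to that of normal 1. Nmbr, the receptor of neuromedin B, was at 23.9, 21.6 and 15.6 FPKM and 9.97, 3.72 and 0.867 FPKM, and Guca2a, the peptide guanylin, at 3.41, 2.21 and 2.07 FPKM and 0.547, 0.161 and 0.226 FPKM. PBOO 3 had the lowest Nmbr and PBOO 2 the lowest Guca2a. Ngb, which encodes neuroglobin, fell from 43.2, 32.9 and 41.4 FPKM to 13.5, 14.1 and 2.79 FPKM, and Slitrk6, a neuronal membrane protein, from 37.0, 36.0 and 25.7 FPKM to 15.9, 10.6 and 2.002 FPKM. In both, PBOO 3 was several times below PBOO 1 and PBOO 2. Log2 fold changes were -2.59 for Nmbr, -2.77 for Guca2a, -2.24 for Ngb and -2.19 for Slitrk6, with limma adjusted p between 0.0503 and 0.1. Car7, Mboat7l1, Fcrla, Gstm7, Krt12, Prss30, Dlk1, Irf7 and Oas1f made up the rest. Mboat7l1 was listed at 0 in PBOO 1 and PBOO 2 and at 3.21 FPKM in PBOO 3, close to the 3.51 FPKM of normal 3, and it did not pass without PBOO 1, PBOO 2, normal 1, normal 2 or normal 3 (-2.82, -2.82, -3.55, -3.69 and -3.75). Dlk1, a membrane protein of immature cells, fell from 2.67, 3.72 and 3.37 FPKM to 0.598, 0.326 and 1.11 FPKM (log2 fold change -2.22), and Car7, a carbonic anhydrase, from 4.63, 2.04 and 5.31 FPKM to 0, 0.0668 and 1.05 FPKM (log2 fold change -3.83).

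**Figure D2:**
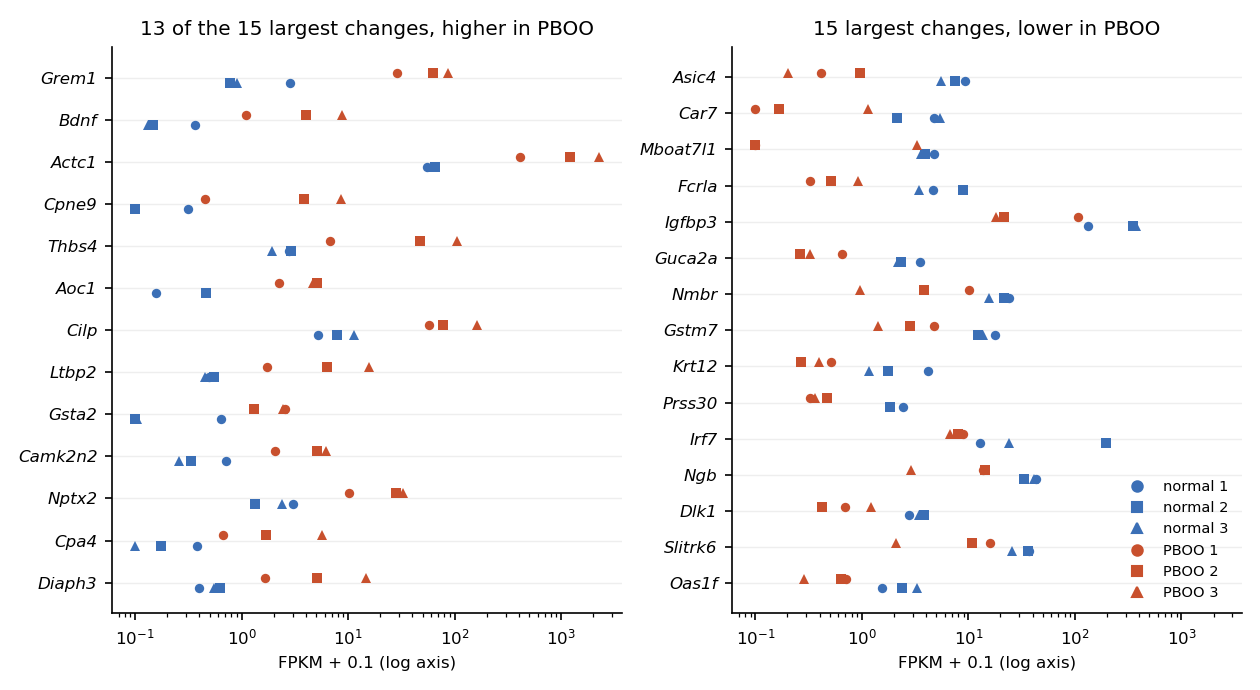
The FPKM + 0.1 of each sample is shown on a log axis for 13 of the 15 largest increases and for the 15 largest decreases among genes that averaged 1 FPKM or more and had no overlap between the 3 normal and the 3 PBOO samples. PBOO 1 is the PBOO sample nearest to the normal samples in Grem1, Bdnf, Actc1 and Thbs4, and normal 2 lies far above the other 5 samples in Irf7, at 198 FPKM.

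The contractile genes of smooth muscle were raised as a group. Of 33 tested genes of this list, 8 rose and none fell, where 2.46% of all genes rose, and the median log2 fold change of the list was 0.67. Actg2, the enteric smooth muscle actin, was at 4834, 4187 and 4242 FPKM in normal and 15712, 20976 and 29521 FPKM in PBOO samples (log2 fold change 2.27, SE 0.28, limma adjusted p = 0.0483). Its rise was shared by Cnn1, the calponin that binds actin and damps the myosin ATPase, with 1679.5, 1805 and 1903 FPKM in normal and 4184, 6588 and 10684 FPKM in PBOO samples (log2 fold change 1.89, SE 0.33, limma adjusted p = 0.0538). Des, which encodes desmin, the intermediate filament of muscle, was at 2561, 2248 and 1917 FPKM and 5520.4, 8055 and 12288 FPKM (log2 fold change 1.88, SE 0.31, limma adjusted p = 0.0523). No sample of one group reached the other in any of these genes, and PBOO 3 was the highest each time. Flnc, a filamin of muscle, was at 72.7, 45.0 and 49.4 FPKM and 173, 217 and 225 FPKM, and Itga8, the integrin alpha 8 chain, at 1.82, 3.02 and 2.46 FPKM and 15.9, 9.02 and 10.9 FPKM. The PBOO samples of Flnc lay close together, and for Itga8 PBOO 1 was the highest. Both passed the adjusted threshold in limma, with log2 fold changes of 1.90 (SE 0.20, adjusted p = 0.0478) and 2.24 (SE 0.27, adjusted p = 0.0483). The other members that rose were Cald1 (log2 fold change 1.29), Pgm5 (1.35) and Synm (1.07), which did not pass without PBOO 2 (0.96).

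Other abundant genes of the contractile list differed by less than 2-fold. Acta2, the vascular-type smooth muscle actin, was at 4540.1, 3463 and 3558 FPKM in normal and at 5960, 4888 and 6106 FPKM in PBOO samples (log2 fold change 0.56, SE 0.20, limma adjusted p = 0.118). Myh11 was at 2453, 2294 and 2073 FPKM and 3203, 3380.2 and 2754 FPKM (log2 fold change 0.45, SE 0.16), and Tagln, the actin-binding transgelin, at 10874, 11310.5 and 11291 FPKM and 15672, 17335 and 20327 FPKM (log2 fold change 0.66, SE 0.23). In all 3 the groups did not overlap, but the difference was smaller than in Actg2, Cnn1 and Des, and quantile normalization gave Tagln a log2 fold change of -0.50. After median-ratio scaling, 16 of the 33 genes rose. Without scaling, the number was 12 without PBOO 1 and 7 without PBOO 2. Actg2, Acta2, Acta1 and Actc1 encode near-identical proteins. How the counting dealt with any fragments that match more than 1 of these genes is not given in the sources used here.

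**Figure D3:**
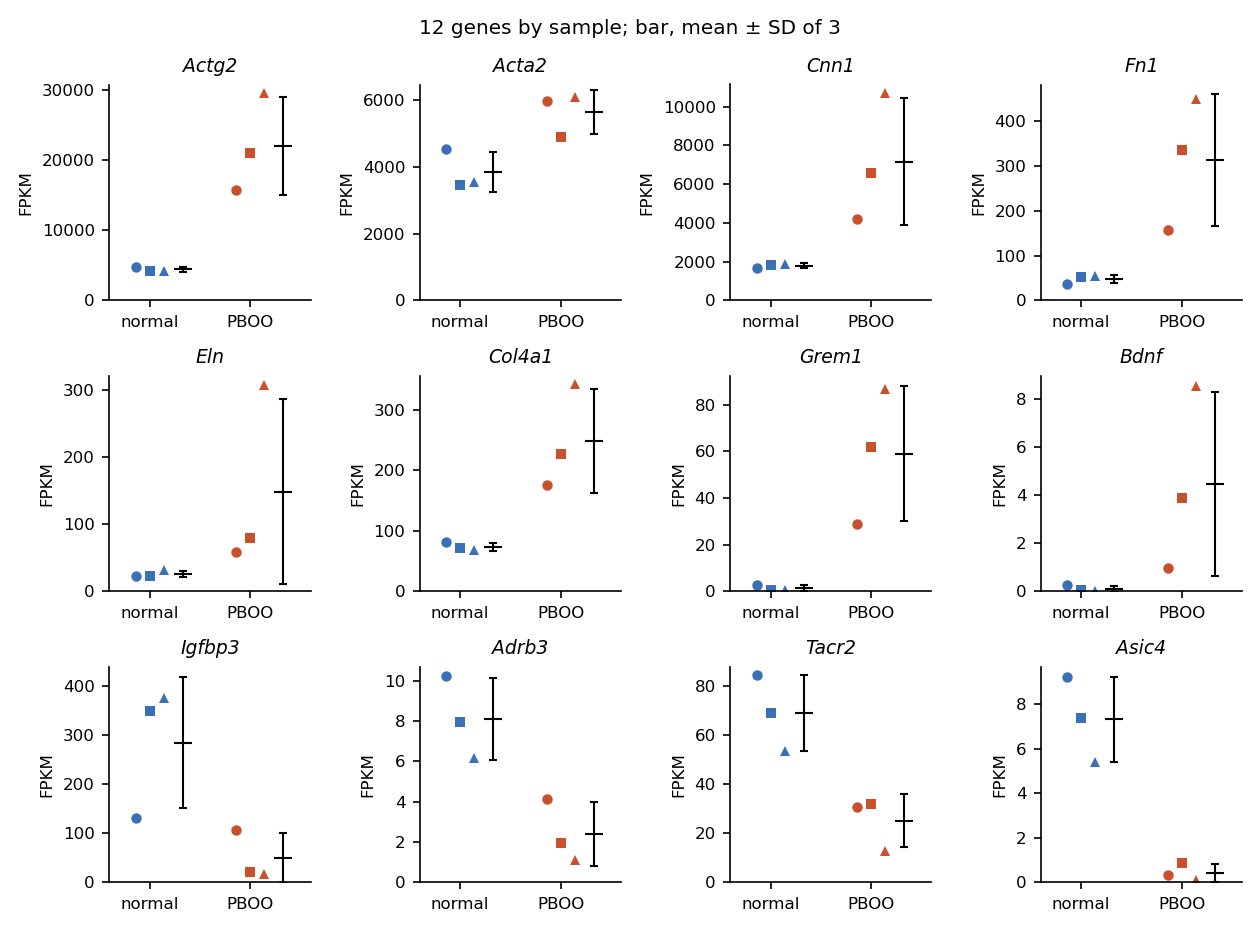
FPKM of 12 genes in each of the 3 normal and 3 PBOO samples, with axes that start at 0 and bars for the mean ± SD of each group. Actg2, Cnn1, Fn1, Col4a1, Grem1 and Bdnf are ordered PBOO 1, PBOO 2, PBOO 3 from low to high, whereas the 3 normal samples of Actg2 lie between 4187 and 4834 FPKM.

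Actin genes of striated muscle rose far more than Acta2. Acta1, the actin of skeletal muscle, was at 101, 114 and 120.3 FPKM in normal and at 257, 783 and 2741 FPKM in PBOO samples (log2 fold change 2.88, SE 0.75, limma adjusted p = 0.0772). As for Actc1, PBOO 3 was the highest, PBOO 1 the lowest, and all normal samples were alike. The promoters of both genes are shown because each holds 1 CArG box, the binding site of serum response factor found in many muscle genes, in the 300 bases from 250 before to 50 after the annotated start. They were chosen after the values of the genes were seen. The sequences are from RefSeq on GRCr8, chr3:121271778-121272077 for Actc1 and chr19:68784145-68784444 for Acta1, both on the minus strand, and capitals mark the CArG box.
Actc1: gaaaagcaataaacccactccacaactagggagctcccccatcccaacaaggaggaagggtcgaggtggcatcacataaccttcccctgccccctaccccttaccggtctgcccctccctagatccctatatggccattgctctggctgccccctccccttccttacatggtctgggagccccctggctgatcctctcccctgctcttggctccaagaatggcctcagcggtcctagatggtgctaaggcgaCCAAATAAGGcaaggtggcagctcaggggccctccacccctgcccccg
Acta1: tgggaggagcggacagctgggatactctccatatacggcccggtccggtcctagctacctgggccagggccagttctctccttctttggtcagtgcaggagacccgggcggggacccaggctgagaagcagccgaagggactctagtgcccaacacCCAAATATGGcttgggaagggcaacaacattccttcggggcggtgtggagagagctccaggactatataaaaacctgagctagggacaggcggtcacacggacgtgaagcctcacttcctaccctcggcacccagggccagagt
The box begins 2 bases after the annotated start for Actc1 and 94 bases before it in Acta1. A CArG box, whose reading is the same pattern on either strand, was found in 1.64% of all 33469 RefSeq promoters of this length. Of 30 promoters of the contractile list, 2 held one, those of Ldb3 and Srf, and none of the 9 promoters of the contractile genes that rose did. A match of letters is not a measured binding site, and regions outside these windows were not searched.

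Other genes of striated muscle were split. Of 15 skeletal muscle markers, 4 rose, namely Acta1, Tnnt3, Tnnc2 and Casq1, and none fell, where 2.46% of all genes rose. Their median log2 fold change was -0.39. Tnnc2, a troponin of fast muscle that binds calcium, was at 222, 385 and 398 FPKM in normal and 596, 974 and 1208 FPKM in PBOO samples (log2 fold change 1.46, SE 0.32, limma adjusted p = 0.0628). Tnnt3, the fast troponin T, was at 17.8, 43.0 and 50.2 FPKM and 68.9, 143 and 168 FPKM (log2 fold change 1.81, SE 0.47, limma adjusted p = 0.0764). Neither gene had an overlap between groups. Other members of the list had another order of samples. Myl1, a fast myosin light chain, was at 1.54, 35.9 and 45.3 FPKM in normal and 0.0979, 0.602 and 46.2 FPKM in PBOO samples. Myh4, a fast myosin heavy chain, was at 0.754, 2.89 and 1.98 FPKM and 0.0489, 0.0607 and 5.88 FPKM, and Mb, myoglobin, at 0.814, 19.2 and 37.7 FPKM and 0.175, 0 and 14.2 FPKM. These 3 genes were at or near 0 in PBOO 1 and PBOO 2 and higher in PBOO 3, normal 2 and normal 3, and the part of skeletal muscle tissue in the values of Acta1, Tnnc2 and Tnnt3 was not tested. Ckm, the muscle creatine kinase, was at 50.8, 60.9 and 63.0 FPKM and 33.3, 46.5 and 57.4 FPKM. Without PBOO 3, the log2 fold change was 2.01 for Acta1 and 3.57 for Actc1, and both rose. Casq1 did not pass without PBOO 2, PBOO 3, normal 1 or normal 2 (1.09, 0.67, 0.71 and 1.17), and 8 of the 15 genes fell without PBOO 3, with a median of -1.90, whereas the median was 0.04 without PBOO 1. Myl1 and Mb were named after their values were seen.

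**Figure D4:**
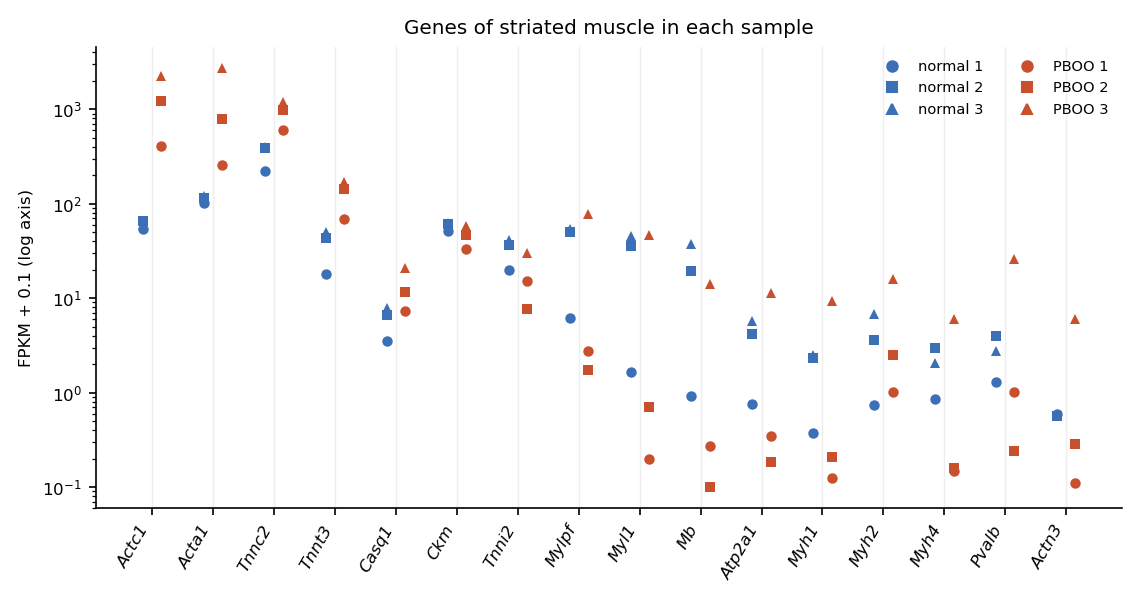
FPKM + 0.1 on a log axis for Actc1 and 15 skeletal muscle genes in each of the 6 samples. All PBOO samples lie above all normal samples in Actc1, Acta1, Tnnc2 and Tnnt3, whereas from Mylpf to Actn3 PBOO 3 lies far above PBOO 1 and PBOO 2, with Myl1 at 46.2, 0.0979 and 0.602 FPKM.

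Genes of the extracellular matrix rose broadly. Matricellular proteins and proteoglycans, which tune how cells bind to the matrix, had 10 of 21 tested genes that rose and none that fell. By the same rule 2.46% of all genes rose, and the median log2 fold change of the list was 0.96. Fn1, which encodes fibronectin, was at 36.9, 51.3 and 54.9 FPKM in normal and at 157, 335 and 449 FPKM in PBOO samples (log2 fold change 2.60, SE 0.38, limma adjusted p = 0.0483). Tnc, which encodes tenascin C, was at 46.0, 34.5 and 35.4 FPKM and 68.3, 138 and 315 FPKM (log2 fold change 1.91, SE 0.50, limma adjusted p = 0.0772). Spp1, osteopontin, went from 0.615, 1.01 and 0.776 FPKM to 2.10, 8.53 and 23.4 FPKM, and Vcan, the proteoglycan versican, from 1.05, 3.45 and 3.62 FPKM to 6.03, 10.6 and 14.9 FPKM. The groups were separate in all 4 genes. For Tnc and Spp1, PBOO 1 was within about 3 times the highest normal sample, whereas PBOO 3 was far above it. The log2 fold changes of Spp1 and Vcan were 3.11 and 2.01 (limma adjusted p = 0.0733 and 0.0774). Thbs1, Sparc, Bgn, Fmod and Aspn rose as well. The median of the list was 0.67 without normal 1, which held the least of it.

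Elastic fibre and crosslinking genes had 9 of 21 that rose and none that fell, where 2.46% of all genes rose, and a median of 0.89. Eln, elastin, was at 22.9, 23.4 and 31.4 FPKM in normal and 59.2, 79.2 and 307 FPKM in PBOO samples (log2 fold change 2.14, SE 0.57, limma adjusted p = 0.0783). The PBOO samples of Eln were uneven, PBOO 3 being several times above the others, and without it the log2 fold change was 1.42 and Eln still rose. Lox and Loxl2, lysyl oxidases that crosslink elastin and collagen, were at 2.95, 5.88 and 5.72 FPKM and 6.67, 10.3 and 12.6 FPKM in normal samples, and at 11.9, 14.3 and 47.9 FPKM and 18.3, 42.2 and 119 FPKM in PBOO samples. They showed the same order, with PBOO 3 highest, and log2 fold changes of 2.10 and 2.23 (limma adjusted p = 0.0765 and 0.084). After median-ratio scaling, 13 of the 21 genes rose.

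Among 19 tested collagen genes, 4 rose and none fell, where 2.46% of all genes rose, and the median log2 fold change was 0.76. Of 43 collagen genes listed, 17 were at 0 in all 6 samples and were not tested, among them Col4a2, Col6a1 and Col6a3. Col4a1, of the basement membrane, was at 81.1, 71.8 and 68.7 FPKM in normal and 176, 227 and 343 FPKM in PBOO samples (log2 fold change 1.70, SE 0.23, limma adjusted p = 0.0483). Col5a1, which joins type I fibrils, was at 27.6, 32.7 and 36.6 FPKM and 66.4, 74.5 and 95.7 FPKM (log2 fold change 1.28, SE 0.17, limma adjusted p = 0.0483), and Col8a1, a short-chain collagen of vessel walls, at 7.88, 10.2 and 9.78 FPKM and 20.7, 39.1 and 63.4 FPKM (log2 fold change 1.99, SE 0.38, limma adjusted p = 0.0538). The normal samples agreed closely in these 3 genes. Col15a1, of basement membranes, rose as well (log2 fold change 1.505, SE 0.53, limma adjusted p = 0.115), but it was at 4.93 FPKM in normal 1 against 20.3 and 19.5 FPKM in the other normal samples, and it did not pass without PBOO 2, PBOO 3 or normal 1 (1.39, 1.45 and 0.84). Col1a1 and Col3a1, the main fibrillar collagens of the wall, did not pass. Col1a1 was at 150.4, 459 and 557 FPKM in normal and 811, 470.2 and 655 FPKM in PBOO samples, and Col3a1 at 369.8, 1086 and 1164 FPKM and 1661, 1223 and 1553 FPKM, with log2 fold changes of 0.90 and 0.92 (limma adjusted p = 0.231 and 0.187). Normal 1 was low in both, and without it the values were 0.32 and 0.38, and the median of the list 0.38. After scaling 7 of the 19 collagens rose. Without scaling, the number was 8 without normal 3 and 3 without PBOO 2, PBOO 3 or normal 1. Enzymes that hydroxylate collagen in the endoplasmic reticulum rose in 3 of 33 genes of their list, against 2.46% of all genes. They were Plod2, from 10.5, 16.2 and 15.5 FPKM to 29.2, 35.5 and 52.7 FPKM, Plod1, from 25.5, 40.9 and 36.0 FPKM to 52.8, 87.4 and 88.5 FPKM, and P4ha3, with a log2 fold change of 1.31. Without PBOO 3 the P4ha3 value was 0.99, and without normal 1 the Plod1 value was 0.95, both under 2-fold.

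Of 31 matrix proteases and inhibitors, 2 rose and none fell, where 2.46% of all genes rose, and the median was 0.38. After scaling 5 rose. Without scaling, the number was 4 without normal 2 or normal 3 and 2 without PBOO 2 or PBOO 3. Timp1, an inhibitor of metalloproteinases, was at 51.7, 55.3 and 61.0 FPKM in normal and 84.0, 172 and 425 FPKM in PBOO samples (log2 fold change 1.71, SE 0.52, limma adjusted p = 0.0929), with no overlap. Mmp17, a membrane-bound metalloproteinase, was at 1.16, 1.25 and 1.41 FPKM and 2.89, 4.22 and 2.41 FPKM (log2 fold change 1.22, SE 0.27, limma adjusted p = 0.0629). Mmp2, the gelatinase that is most abundant in stroma, was at 39.1, 120.3 and 121 FPKM and 153, 162 and 154 FPKM, a log2 fold change of 0.91 that was 0.37 without normal 1. Markers of fibroblasts and interstitial cells had 3 of 24 genes that rose, against 2.46% of all genes. Their median was 0.18, but 1 gene rose without normal 1, where the median was -0.14. Pi16, a marker of adventitial fibroblasts, was at 16.1, 75.1 and 81.9 FPKM and 116, 155 and 143 FPKM, and Fap, a protease of activated fibroblasts, at 0.382, 1.16 and 1.27 FPKM and 2.19, 2.21 and 4.24 FPKM. The list summed to 1486 FPKM in normal 1 and to 3613 and 3673 FPKM in normal 2 and normal 3, against 3008 to 3559 FPKM in PBOO samples. Pdgfra, at 9.30, 25.6 and 25.9 FPKM in normal and 23.6, 20.2 and 18.1 FPKM in PBOO samples, and Vim, at 283, 424 and 446 FPKM and 350.3, 509 and 473 FPKM, had overlapping groups. Pi16 did not pass without PBOO 1, PBOO 2, PBOO 3 or normal 1 (1.69, 1.48, 1.53 and 0.81), whereas Fap passed in every fit that left out 1 sample. The part of the low stromal genes of normal 1 in the other matrix results was not tested.

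Single genes of the TGF-beta family rose or fell, and only their RNA was measured. Of 46 tested genes of the TGF-beta and BMP pathway, 5 rose and 2 fell, where 2.46% of all genes rose and 2.45% fell. Their median was -0.17, against -0.25 over all genes. After median-ratio scaling it was 0.08, with 6 genes that rose and none that fell. Among ligands, Inhba, whose product forms activin A, was at 0.553, 1.05 and 0.648 FPKM in normal and 1.83, 4.11 and 8.47 FPKM in PBOO samples (log2 fold change 2.32, SE 0.55, limma adjusted p = 0.0679). Tgfb2 was at 11.1, 7.32 and 6.83 FPKM and 12.3, 25.9 and 33.1 FPKM (log2 fold change 1.40, SE 0.38, limma adjusted p = 0.0788), and PBOO 1 was barely above normal 1. Tgfb1, at 25.4, 25.9 and 23.9 FPKM and 29.4, 23.7 and 31.0 FPKM, had overlapping groups and a log2 fold change of 0.15. Among the secreted antagonists, Fstl3, which binds activin, was at 11.4, 9.57 and 9.61 FPKM and 27.5, 42.8 and 75.1 FPKM (log2 fold change 2.12, SE 0.34, limma adjusted p = 0.0503), next to Grem1 above. Fstl1 also rose (log2 fold change 1.19). Without PBOO 1, 6 genes of the pathway fell, and without PBOO 3 none did. Among genes that BMP signalling switches on, Id3 was at 135, 165 and 135 FPKM in normal and 106, 52.7 and 45.9 FPKM in PBOO samples (log2 fold change -1.18), and Bambi, a pseudoreceptor, at 91.1, 117 and 106 FPKM and 90.2, 52.6 and 29.5 FPKM (log2 fold change -1.001). The PBOO 1 value of Bambi was next to that of normal 1, and PBOO 3 was the lowest. Both decreases were under 2-fold after median-ratio scaling (-0.93 and -0.75). Id3 also did not pass without PBOO 3 (-0.95), nor did Bambi without PBOO 2, PBOO 3, normal 2 or normal 3 (-1.01, -0.59, -0.92 and -0.99).

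Among 45 other growth factor ligands, 3 rose and 2 fell, where 2.46% of all genes rose and 2.45% fell. Their median was -0.12, or 0.12 after scaling. Besides Bdnf, Gdnf, a ligand for neurons of the peripheral nervous system, was at 0.288, 0 and 0.0674 FPKM in normal and 0.288, 5.57 and 7.64 FPKM in PBOO samples (log2 fold change 3.79, SE 1.17, limma adjusted p = 0.095). PBOO 1 was at the level of normal 1, so the groups overlapped, and the change did not pass without PBOO 2 or PBOO 3 (3.21 and 2.99). Btc, an EGF receptor ligand, also overlapped (log2 fold change 1.97), with 7.93 FPKM in PBOO 3 and 0.731 FPKM in PBOO 1, and it did not pass without PBOO 2, PBOO 3, normal 1 or normal 2 (2.05, 1.11, 1.83 and 1.82). Artn, artemin, a ligand of the same family as Gdnf, fell from 16.1, 11.4 and 14.2 FPKM to 8.08, 5.02 and 3.91 FPKM (log2 fold change -1.33, SE 0.28, limma adjusted p = 0.0574), and its groups were separate. Fgf13, a member of the family that stays inside the cell, fell too (log2 fold change -1.44), at levels of about 1 FPKM or less. Gfra2, the co-receptor of neurturin, was at 14.2, 13.0 and 13.4 FPKM in normal and 6.13, 6.15 and 3.84 FPKM in PBOO samples (log2 fold change -1.35, SE 0.21, limma adjusted p = 0.0503). Fgf2, on which the study centres, was at 4.07, 3.58 and 3.77 FPKM and 4.96, 7.63 and 5.97 FPKM, a log2 fold change of 0.67 (SE 0.20, limma adjusted p = 0.0917) with no overlap between groups. The change was under 2-fold, so Fgf2 did not pass. The study places Fgf2 among genes of high expression at week 4 and calls it nearly undetectable in published control bladder data. It also reports higher Fgf2 protein at week 4 in serum and by western blot, which RNA values do not measure. Igf1 was at 8.83, 17.5 and 23.9 FPKM and 19.8, 16.8 and 29.4 FPKM, with overlap. The insulin-like growth factor binding proteins went both ways. Igfbp2 rose from 305, 267 and 274 FPKM to 444, 736 and 1091 FPKM (log2 fold change 1.33, SE 0.30, limma adjusted p = 0.0642), whereas Igfbp5 fell from 198, 95.8 and 83.3 FPKM to 64.0, 56.5 and 23.1 FPKM (log2 fold change -1.41, SE 0.46, limma adjusted p = 0.104) as Igfbp3 did. Igfbp5 did not pass without PBOO 3 (-0.95).

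Genes of cell division rose in PBOO bladder tissues, unevenly between samples. Of 55 tested cell cycle genes, 20 rose and none fell, where 2.46% of all genes rose, and the median log2 fold change was 0.65. Prc1, which bundles the microtubules of the dividing spindle, was at 13.1, 8.44 and 8.88 FPKM in normal and 31.5, 56.6 and 113 FPKM in PBOO samples (log2 fold change 2.55, SE 0.44, limma adjusted p = 0.0538). Rrm2, which makes nucleotides for DNA synthesis, was at 0.733, 0.738 and 1.16 FPKM and 2.01, 6.95 and 14.9 FPKM (log2 fold change 2.66, SE 0.67, limma adjusted p = 0.0733). Mki67, the antigen of dividing cells, was at 0.267, 0.653 and 0.738 FPKM and 1.23, 1.77 and 5.21 FPKM (log2 fold change 1.95, SE 0.59, limma adjusted p = 0.0925), and Top2a, a topoisomerase of mitosis, at 0.110, 0.676 and 0.896 FPKM and 1.13, 3.05 and 8.13 FPKM (log2 fold change 2.54, SE 0.83, limma adjusted p = 0.104). All PBOO samples were above all normal samples in these 4 genes, with PBOO 1 lowest and PBOO 3 highest. Prc1 stood out by its level, since the other 3 were under 2 FPKM in every normal sample. Cdkn3, a phosphatase of cell cycle kinases, rose from 0.128, 0.590 and 0.502 FPKM to 0.774, 2.02 and 6.23 FPKM. The number of genes that rose was 6 without PBOO 3, 10 without PBOO 2, 27 without PBOO 1 and 7 without normal 1, and Top2a did not pass without PBOO 3 (1.85), nor did Cdkn3 without PBOO 3 or normal 1 (1.58 and 1.82). None of the 20 passed the adjusted threshold of limma.

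Promoters of 4 of these genes are shown around a shared short motif, the cell cycle genes homology region (CHR), TTTGAA, which is known from genes transcribed before mitosis. Both strands were searched, so TTCAAA counts as a match. The windows are from RefSeq on GRCr8, chr1:143659438-143659493 on the plus strand for Prc1, and chr10:84473085-84473140, chr1:199952662-199952735 and chr13:103760854-103760909 on the minus strand for Top2a, Mki67 and Cenpf, with the motif in capitals.
Prc1: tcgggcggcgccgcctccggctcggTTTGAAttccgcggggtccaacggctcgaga
Top2a: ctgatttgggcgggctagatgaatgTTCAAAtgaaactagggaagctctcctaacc
Mki67: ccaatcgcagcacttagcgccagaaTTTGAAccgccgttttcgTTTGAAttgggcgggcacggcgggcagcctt
Cenpf: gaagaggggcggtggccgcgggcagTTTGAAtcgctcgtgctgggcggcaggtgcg
The first match begins 18 bases before the annotated start in Prc1, 22 in Top2a and 117 in Mki67, and 2 bases after it in Cenpf, a centromere protein that rose as well (log2 fold change 2.19). The motif was found in 20 of 46 promoters of the cell cycle list (43.5%) and in 11 of 17 promoters of the genes of the list that rose (64.7%), against 18.3% of all 33469 promoters of the same length and 11.5% of the promoters of genes tested. The list was drawn up from known cell cycle genes, so its share describes the list and not the obstruction. These shares are descriptions, and the motif is too short to mark a site by itself.

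Urothelial genes were lower in PBOO bladder tissues, by small amounts. Of 42 tested urothelium markers, 5 fell and none rose, where 2.45% of all genes fell, and the median log2 fold change was -0.75. Tp63, the transcription factor of basal cells, was at 28.5, 22.5 and 21.5 FPKM in normal and 11.7, 12.5 and 9.51 FPKM in PBOO samples (log2 fold change -1.09, SE 0.16, limma adjusted p = 0.0503). Krt15, a keratin of basal cells, was at 774, 668 and 680.2 FPKM and 536, 307 and 238 FPKM (log2 fold change -1.06, SE 0.28, limma adjusted p = 0.0783), and Cldn4, a tight junction claudin, at 337, 245 and 248 FPKM and 161, 141 and 106 FPKM (log2 fold change -1.03, SE 0.20, limma adjusted p = 0.0538). The groups were separate in these 3 genes. Krt20, a keratin of superficial umbrella cells, was at 53.2, 41.6 and 40.4 FPKM and 12.2, 14.4 and 40.6 FPKM, where PBOO 3 reached normal 3 (log2 fold change -1.21). Scnn1b, a subunit of the epithelial sodium channel, went from 69.6, 60.2 and 55.7 FPKM to 48.5, 32.7 and 16.6 FPKM (log2 fold change -1.04). The uroplakins differed less, with Upk1a at 1655, 1496 and 1646 FPKM and 1039, 1017 and 827 FPKM (log2 fold change -0.74) and Upk2 at 1336, 1183 and 1457 FPKM and 787, 870.5 and 731 FPKM (log2 fold change -0.73). Krt5, another basal keratin, was at 248, 244 and 215 FPKM and 279, 163 and 108 FPKM, with overlap. The summed FPKM of the list was 11057 to 14464 in normal and 6607 to 8994 in PBOO samples. None of the 5 genes passed after median-ratio scaling, where their log2 fold changes were -0.78 to -0.96, none of the 42 fell without normal 1, and 1 fell without PBOO 3, 8 without normal 2 and 22 without PBOO 1. Tp63 did not pass without PBOO 3 or normal 1 (-0.98 and -0.97), Cldn4 without PBOO 3 or normal 1 (-0.86 and -0.88) and Scnn1b without PBOO 3 or normal 1 (-0.62 and -0.96). Krt15 did not pass without PBOO 2, PBOO 3 or normal 1 (-0.98, -0.80 and -0.99), and Krt20 without PBOO 1, PBOO 2 or normal 1 (-0.88, -1.002 and -1.08).

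Markers of nerve fibres and their glia were lower as well. Of 18 Schwann cell and glia genes, 6 fell and none rose, where 2.45% of all genes fell, and the median was -0.73. Scn7a, a sodium channel of glia that does not open with voltage, was at 45.9, 37.2 and 34.9 FPKM in normal and 12.9, 22.0 and 9.10 FPKM in PBOO samples (log2 fold change -1.502, SE 0.30, limma adjusted p = 0.0555). Sox10, the transcription factor of the glial lineage, was at 7.62, 5.09 and 4.27 FPKM and 2.58, 3.71 and 1.49 FPKM (log2 fold change -1.15, SE 0.37, limma adjusted p = 0.102). The groups were separate, and PBOO 3 was the lowest sample in both genes. Sostdc1, a secreted antagonist of BMP and Wnt signals, went from 12.3, 6.93 and 3.89 FPKM to 1.98, 3.02 and 1.05 FPKM (log2 fold change -1.85, SE 0.50, limma adjusted p = 0.08), and Gfap and Ncmap also fell, from at most 3.04 FPKM. Gfap did not pass without normal 1 (-0.90), nor did Ncmap without PBOO 2, PBOO 3, normal 1 or normal 3 (-1.07, -0.82, -0.88 and -1.002), and neither passed after scaling (-0.88 and -0.86). S100b, at 19.3, 29.2 and 30.9 FPKM and 7.17, 17.3 and 22.1 FPKM, overlapped. After median-ratio scaling, Scn7a and Sostdc1 still fell, while Sox10 was under 2-fold (-0.90). Sox10 also did not pass without PBOO 3 or normal 1 (-0.81 and -0.91).

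Of 19 neuron and synapse genes, 3 fell and 2 rose, where 2.45% of all genes fell and 2.46% rose, and the median was -0.60. Nefl, the light neurofilament, was at 13.8, 11.5 and 17.9 FPKM in normal and 4.28, 8.85 and 1.81 FPKM in PBOO samples (log2 fold change -1.76, SE 0.52, limma adjusted p = 0.0882), and Syt1, the calcium sensor of synaptic vesicles, at 6.51, 6.12 and 5.26 FPKM and 2.68, 2.99 and 1.16 FPKM (log2 fold change -1.45, SE 0.35, limma adjusted p = 0.0714). Grin2c, a glutamate receptor subunit, fell from 5.57, 4.89 and 3.97 FPKM to 2.81, 1.5 and 1.33 FPKM (log2 fold change -1.37, SE 0.31, limma adjusted p = 0.065). All 3 were separate between groups and fell in every fit that left out 1 sample and after scaling. Tubb3, the tubulin of neurons, was in contrast at 1.77, 1.22 and 1.09 FPKM and 1.63, 4.14 and 3.82 FPKM (log2 fold change 1.10), with PBOO 1 among the normal samples, and its rise did not pass without PBOO 2, PBOO 3, normal 2 or normal 3 (0.86, 0.92, 1.04 and 0.96). Syn1, a synapsin, also rose (log2 fold change 1.12), but not without normal 1, normal 2 or normal 3 (1.18, 1.05 and 1.13) and lay under the minimum of the filter without PBOO 2 or PBOO 3. The cell bodies of most neurons that supply the bladder lie outside its wall.

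Receptors by which nerves act on the bladder changed in both directions. Of 53 tested transmitter and peptide receptors, 4 rose and 7 fell, where 2.46% of all genes rose and 2.45% fell. Their median was -0.18, or 0.07 after scaling. Among receptors of contraction, Chrm2, the more abundant muscarinic receptor, was at 19.9, 24.0 and 18.3 FPKM in normal and 32.3, 34.2 and 32.5 FPKM in PBOO samples (log2 fold change 0.68, SE 0.13, limma adjusted p = 0.0538), with no overlap. Chrm3, which drives contraction, was at 6.85, 8.69 and 7.72 FPKM and 11.5, 8.27 and 9.94 FPKM, with overlap. P2rx1, the ATP-gated channel of the detrusor, was at 385, 515 and 508 FPKM and 613, 813 and 937 FPKM (log2 fold change 0.74, SE 0.20). Adra1d, an alpha adrenergic receptor, rose from 2.08, 1.02 and 1.39 FPKM to 4.80, 10.2 and 8.43 FPKM (log2 fold change 2.29, SE 0.36, limma adjusted p = 0.0503), and Bdkrb1, the kinin receptor that is induced in injured tissue, from 0.658, 0.464 and 0.641 FPKM to 0.940, 1.84 and 2.43 FPKM (log2 fold change 1.34, SE 0.40, limma adjusted p = 0.0917). Glra1, a glycine receptor subunit, rose from 0.220, 0.393 and 0.565 FPKM to 1.81, 3.07 and 4.46 FPKM (log2 fold change 2.68, SE 0.44, limma adjusted p = 0.0521). P2rx5 was the last to rise (log2 fold change 1.10) and did not pass without PBOO 2, normal 1 or normal 2 (0.83, 0.95 and 1.06). Their groups were separate.

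Receptors of relaxation and of tachykinins were among those that fell. Adrb3, the beta receptor through which the detrusor relaxes, was at 10.2, 7.95 and 6.17 FPKM in normal and 4.16, 1.94 and 1.11 FPKM in PBOO samples (log2 fold change -1.88, SE 0.45, limma adjusted p = 0.0703). Adrb1 was at 4.89, 2.97 and 2.81 FPKM and 2.03, 0.865 and 0.949 FPKM (log2 fold change -1.46, SE 0.39, limma adjusted p = 0.0778). Tacr2, the receptor of neurokinin A that contracts smooth muscle, was at 84.4, 69.0 and 53.7 FPKM and 30.6, 32.1 and 12.9 FPKM (log2 fold change -1.54, SE 0.36, limma adjusted p = 0.0679). No PBOO sample reached a normal sample in these 3 genes, and all 3 fell after scaling and without any 1 sample. Tacr1, the receptor of substance P, fell from 17.1, 9.13 and 9.52 FPKM to 6.23, 8.64 and 2.65 FPKM (log2 fold change -1.11), but not after scaling (-0.86) nor without PBOO 1, PBOO 3, normal 1 or normal 3 (-1.23, -0.63, -0.82 and -1.24). Agtr1b, Avpr1a and Chrne made up the other genes that fell, of which Agtr1b did not pass without PBOO 3, normal 1 or normal 3 (-0.95, -1.37 and -1.37) and Avpr1a without PBOO 2, PBOO 3, normal 2 or normal 3 (-1.08, -0.78, -1.05 and -0.96) or after scaling (-0.93). Chrne, at 1.29, 1.77 and 1.69 FPKM and 1.17, 0.829 and 0.296 FPKM, lay at the p threshold (limma unadjusted p = 0.05) and, of the fits that left out 1 sample, passed only in the one without PBOO 1 (-1.46), and it was under 2-fold after scaling (-0.89). The number of receptors that fell was 11 without PBOO 1 and 3 without PBOO 3, and 4 after scaling.

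Ion channels and calcium handling genes showed single changes rather than a shift of the group. Of 34 genes of muscle calcium handling, 3 rose and 1 fell, where 2.46% of all genes rose and 2.45% fell, and the median was 0.03. Cacna2d1, the auxiliary subunit of L-type calcium channels, was at 16.7, 28.2 and 20.4 FPKM in normal and 90.2, 89.2 and 117 FPKM in PBOO samples (log2 fold change 2.20, SE 0.21, limma adjusted p = 0.0478). The pore-forming Cacna1c was at 8.94, 7.93 and 7.81 FPKM and 12.8, 16.4 and 10.6 FPKM (log2 fold change 0.66, SE 0.18), also without overlap. Plcb1, the phospholipase downstream of contractile receptors, was at 1.74, 1.90 and 2.49 FPKM and 4.98, 6.76 and 6.30 FPKM (log2 fold change 1.51, SE 0.22, limma adjusted p = 0.0483), and Casq2, a calsequestrin that stores calcium, at 18.3, 16.8 and 19.9 FPKM and 40.3, 58.5 and 116 FPKM (log2 fold change 1.82, SE 0.35, limma adjusted p = 0.0538). Atp2a3, a calcium pump of the endoplasmic reticulum, fell from 23.6, 23.2 and 19.4 FPKM to 13.5, 12.01 and 5.62 FPKM (log2 fold change -1.17), but by less than 2-fold after scaling (-0.92) or without PBOO 3 (-0.78). Of 30 potassium channel genes, 3 rose and 1 fell. Kcnf1, a silent subunit of voltage-gated channels, was at 9.69, 4.22 and 3.89 FPKM and 19.8, 20.2 and 12 FPKM (log2 fold change 1.62, SE 0.38, limma adjusted p = 0.0679), and Kcnn3, a small-conductance calcium-activated channel that damps bladder contractions, at 1.08, 2.75 and 2.49 FPKM and 4.69, 8.82 and 3.88 FPKM (log2 fold change 1.43, SE 0.44, limma adjusted p = 0.0934). Kcne4 rose too (log2 fold change 1.08), with overlap, and did not pass without PBOO 2, PBOO 3, normal 2 or normal 3 (1.01, 0.79, 0.79 and 1.11). Kcnma1, the large-conductance channel of detrusor, was at 9.14, 8.03 and 8.59 FPKM and 9.31, 11.1 and 6.04 FPKM, whereas its accessory subunits differed, Kcnmb1 at 124, 126 and 122.9 FPKM and 149, 167 and 161 FPKM and Kcnmb4, which fell, at 3.60, 4.42 and 4.35 FPKM and 1.73, 2.13 and 1.21 FPKM (log2 fold change -1.27, SE 0.26, limma adjusted p = 0.0554). Of 20 sensor and sodium channels, 1 rose, and Asic4, Scn7a and Scnn1b fell. Without PBOO 3, none of the 20 rose. The mechanosensors Piezo1, at 19.2, 13.3 and 12.7 FPKM and 16.1, 16.0 and 19.2 FPKM, and Trpv4, at 29.8, 18.5 and 19.8 FPKM and 22.7, 13.7 and 9.03 FPKM, overlapped between groups.

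Interferon response genes were lower in PBOO than in normal samples and far higher in normal 2 than in any other sample. Of 51 tested genes, 9 fell and none rose, where 2.45% of all genes fell, and the median log2 fold change was -0.82. Irf7, the transcription factor that amplifies type I interferon, was at 12.6, 198 and 23.8 FPKM in normal and 8.73, 7.85 and 6.58 FPKM in PBOO samples (log2 fold change -2.33, SE 0.91, limma adjusted p = 0.136). Isg15, a ubiquitin-like protein, was at 13.9, 94.6 and 13.8 FPKM and 7.25, 9.34 and 7.75 FPKM (log2 fold change -1.69), and Rsad2, the antiviral viperin, at 1.02, 7.43 and 1.18 FPKM and 0.736, 0.513 and 0.284 FPKM (log2 fold change -1.93). In all 3 genes normal 2 was several times above the other normal samples, although every PBOO sample was below all of them. Without normal 2, the value of Irf7 was -1.17, and it was the 1 gene of the list that fell. Isg15 did not pass without PBOO 1, PBOO 2, PBOO 3 or normal 2 (-1.62, -1.80, -1.67 and -0.77), nor did Rsad2 without PBOO 2, PBOO 3 or normal 2 (-1.97, -1.63 and -1.04). Without normal 1, 27 of the 51 fell. The median of the list was -0.48 without normal 2 and -1.12 without normal 1. After median-ratio scaling 1 of the 51 fell, and Irf7, Isg15, Rsad2, Oas1b and Bst2 did not pass (log2 fold changes -2.08, -1.44, -1.71, -1.49 and -0.81). Irf7 also did not pass without PBOO 1, PBOO 2 or PBOO 3 (-2.43, -2.35 and -2.23). Mx1, at 2.60, 34.5 and 3.75 FPKM in normal and 4.25, 6.06 and 5.84 FPKM in PBOO samples, was above both other normal samples in all PBOO samples and below normal 2. Oas1b, at 3.48, 22.7 and 3.24 FPKM and 1.995, 2.38 and 1.35 FPKM, belongs to a family of close copies, among which fragments may be split.

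The promoters of 4 of the genes that fell are shown around the interferon-stimulated response element (ISRE), searched as GAAANNGAAA on both strands, where N is any base. The windows are from RefSeq on GRCr8, all on the minus strand, at chr1:205800058-205800117 for Irf7, chr6:48788233-48788292 for Rsad2, chr12:41395877-41395936 for Oas1b and chr16:18255064-18255123 for Bst2, a tetherin that fell from 35.7, 142 and 78.7 FPKM to 39.8, 34.6 and 32.0 FPKM, and capitals mark the match.
Irf7: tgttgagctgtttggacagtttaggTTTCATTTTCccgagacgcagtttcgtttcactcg
Rsad2: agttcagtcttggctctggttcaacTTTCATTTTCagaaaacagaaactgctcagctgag
Oas1b: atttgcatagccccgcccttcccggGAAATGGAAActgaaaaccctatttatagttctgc
Bst2: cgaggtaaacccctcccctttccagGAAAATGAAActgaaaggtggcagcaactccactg
The match begins 69 bases before the annotated start in Irf7, 147 in Rsad2, 59 in Oas1b and 131 in Bst2. It was found in 30 of 44 promoters of the interferon list (68.2%) and in all 6 promoters of those genes of the list that fell and have one in the table, against 3.92% of all 33469 promoters. The list was drawn up from genes known to respond to interferon, so this share describes the list and not the obstruction. Of the genes shown, Oas1b did not pass without PBOO 1, PBOO 2, PBOO 3 or normal 2 (-1.77, -1.90, -1.51 and -0.82), nor did Bst2 without PBOO 1, PBOO 2, PBOO 3, normal 2 or normal 3 (-1.15, -1.04, -0.99, -0.58 and -1.01).

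Immediate early genes, which are switched on within minutes of a stimulus, fell in 6 of 37 cases and rose in none. By the same rule 2.45% of all genes fell, and the median of the list was -0.29. Junb, of the AP-1 complex, was at 146, 153 and 160 FPKM in normal and 69.0, 77.2 and 77.5 FPKM in PBOO samples (log2 fold change -1.04, SE 0.10, limma adjusted p = 0.0478). Zfp36, which makes cytokine transcripts unstable, was at 113, 144 and 158 FPKM and 59.0, 58.3 and 49.2 FPKM (log2 fold change -1.30, SE 0.15, limma adjusted p = 0.0483). The samples of each group were close together in both genes. Fos was at 60.1, 240.4 and 196 FPKM and 22.4, 53.5 and 34.0 FPKM (log2 fold change -2.04, SE 0.55, limma adjusted p = 0.0791), and Fosb at 3.33, 25.2 and 9.06 FPKM and 1.20, 2.37 and 2.90 FPKM (log2 fold change -2.12, SE 0.70, limma adjusted p = 0.106), without overlap but with normal 1 well below the other normal samples. Egr1, at 27.3, 206 and 115 FPKM and 8.55, 25.6 and 41.1 FPKM, overlapped and passed in the fit of all 6 samples (log2 fold change -2.05), but not after scaling (-1.80) nor without PBOO 1, PBOO 2, normal 2 or normal 3 (-1.41, -2.20, -1.43 and -1.84). Jun was at 45.1, 84.7 and 80.2 FPKM and 34.8, 122 and 59.96 FPKM, with PBOO 2 the highest of all. Junb was under 2-fold after scaling (-0.79) and without PBOO 1 (-0.98), and Fosb did not pass without PBOO 1 (-1.77). Sik1, an inducible kinase, fell from 8.66, 12.01 and 7.26 FPKM to 5.58, 4.61 and 3.44 FPKM (log2 fold change -1.01), but not after scaling (-0.77) nor without PBOO 3 or normal 2 (-0.83 and -0.82). The number of genes of the list that fell was 7 without normal 1 and 3 without PBOO 1, and 3 after scaling.

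Leukocyte markers differed widely among the normal samples. Of 23 macrophage and dendritic genes, 1 rose and none fell, where 2.46% of all genes rose. Gpnmb, a glycoprotein of lipid-laden macrophages, rose from 67.3, 91.4 and 79.4 FPKM in normal to 103, 260.2 and 201 FPKM in PBOO samples (log2 fold change 1.15, SE 0.33, limma adjusted p = 0.0844). Without PBOO 2 it had a log2 fold change of 0.87 and did not pass. Csf1r, the receptor of macrophage growth factor, was at 5.45, 41.1 and 48.9 FPKM and 35.1, 36.1 and 43.5 FPKM, and Cd68, a lysosomal protein of macrophages, at 5.40, 30.6 and 27.3 FPKM and 22.9, 30.9 and 41.3 FPKM. Normal 1 was the lowest of the 6 samples in both. The median of the list was 0.67 with all samples and -0.32 without normal 1. Among 14 neutrophil and mast cell genes, 3 rose and none fell, where 2.46% of all genes rose, and all 3 were mast cell proteases. Tpsab1, a tryptase, was at 0.525, 2.30 and 1.74 FPKM and 5.48, 4.08 and 5.79 FPKM (log2 fold change 1.88, SE 0.50, limma adjusted p = 0.0778), and passed in every fit that left out 1 sample. Cma1, a chymase, was at 2.09, 7.88 and 7.05 FPKM and 16.1, 11.9 and 13.0 FPKM (log2 fold change 1.45), and Tpsb2, another tryptase, at 1.41, 5.67 and 3.21 FPKM and 12.2, 5.80 and 7.38 FPKM (log2 fold change 1.41). Cma1 did not pass without PBOO 1 or normal 1 (1.33 and 0.85), nor did Tpsb2 without PBOO 1, PBOO 3, normal 1 or normal 3 (1.11, 1.48, 0.90 and 1.47). Without normal 1, 1 gene of the list rose and 4 fell. Cpa3, the mast cell carboxypeptidase, was at 1.04, 14.01 and 10.6 FPKM and 21.5, 15.7 and 17.7 FPKM, separate between groups but past no threshold (log2 fold change 1.71, limma unadjusted p = 0.0919). The calprotectin subunit S100a8 of neutrophils was at 0.542, 21.4 and 21.9 FPKM and 2.65, 4.003 and 13.6 FPKM.

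Of 15 lymphocyte genes, 1 fell and none rose, where 2.45% of all genes fell. Fcrla, an Fc receptor-like protein of B cells, fell from 4.597, 8.85 and 3.31 FPKM to 0.227, 0.411 and 0.827 FPKM (log2 fold change -3.29, SE 0.50, limma adjusted p = 0.0503). Cd3e, of the T cell receptor complex, was at 0.379, 1.28 and 2.22 FPKM and 1.51, 0.537 and 0.826 FPKM. Among 34 cytokines and chemokines, Spp1 rose and 4 fell, where 2.45% of all genes fell. Ltb, lymphotoxin beta, was at 3.75, 4.31 and 4.33 FPKM in normal and 1.81, 1.03 and 0.920 FPKM in PBOO samples (log2 fold change -1.70, SE 0.29, limma adjusted p = 0.0538), with no overlap and close normal samples. Cxcl10, an interferon-induced chemokine, was at 4.77, 21.2 and 5.83 FPKM and 4.06, 2.41 and 1.88 FPKM (log2 fold change -1.63) and did not pass without PBOO 2, PBOO 3 or normal 2 (-1.57, -1.40 and -0.97). Ccl11, eotaxin, and Tnfsf10, a death ligand, fell with overlapping groups, Ccl11 from 12.5, 73.5 and 107 FPKM to 23.2, 8.67 and 2.68 FPKM. Ccl11 did not pass without PBOO 2, PBOO 3, normal 2 or normal 3 (-2.53, -1.70, -2.15 and -1.88), nor did Tnfsf10 without PBOO 2, PBOO 3, normal 2 or normal 3 (-1.31, -0.82, -0.86 and -1.20), and neither passed after scaling (-2.24 and -0.98). The number of genes of the list that fell was 8 without normal 1 and 1 without PBOO 2, PBOO 3 or normal 2. Il1b was at 1.33, 5.49 and 3.66 FPKM and 2.16, 1.13 and 0.909 FPKM, and Ccl2 at 4.03, 15.2 and 5.87 FPKM and 3.33, 5.77 and 13.1 FPKM, both with overlap. None of 26 antigen presentation genes rose or fell, with a median of -0.40 and 6 lower at an unadjusted limma p under 0.05, where 26.2% of all genes tested were lower at that p. Without normal 1, 5 of the 26 fell, with a median of -0.64, and without normal 2 the median was -0.14. Cd74, the invariant chain of MHC class II, was at 192, 405 and 488 FPKM and 355, 362 and 252 FPKM.

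Lists of energy metabolism differed in how many of their genes passed the thresholds. None of 58 respiratory chain subunits passed the thresholds. At an unadjusted limma p under 0.05, 31 of the 58 were lower, against 2969 of the 11320 genes tested (26.2%). Every PBOO sample lay below every normal sample in 40 of the 58, against 34.9% of all genes tested. The median of the list was -0.30 against -0.25 over all genes, or -0.05 after scaling. A further 18 subunits, among them Atp5a1 and Atp5b, were at 0 in all 6 samples and were not tested. Cox4i1, of cytochrome c oxidase, was at 773, 747 and 737 FPKM in normal and 549.8, 549 and 467 FPKM in PBOO samples (log2 fold change -0.53). Sdha was at 129, 128 and 130.2 FPKM and 109, 97.5 and 74.2 FPKM, and Ndufs1 at 48.8, 50.6 and 56.9 FPKM and 48.0, 47.6 and 43.3 FPKM. Of 30 genes of fatty acid and peroxisome metabolism, 5 fell and none rose, where 2.45% of all genes fell, and the median was -0.47. Acaa2, which cleaves acyl chains in mitochondria, was at 79.5, 89.4 and 80.0 FPKM and 35.7, 42.9 and 26.5 FPKM (log2 fold change -1.27, SE 0.18, limma adjusted p = 0.0483), and fell after scaling and without any 1 sample. Eci1 and Ech1, isomerases of unsaturated fatty acids, had log2 fold changes of -1.03 and -1.02, which were -0.78 and -0.77 after scaling, under 2-fold. Eci1 did not pass without PBOO 3 or normal 2 (-0.82 and -0.93), nor did Ech1 without PBOO 2, PBOO 3, normal 2 or normal 3 (-0.99, -0.81, -0.99 and -0.99). Angptl4 fell with overlapping groups, but not after scaling (-0.94), and the number of genes of the list that fell was 7 without PBOO 1 and 1 without normal 2. Acadm was at 36.8, 43.2 and 41.8 FPKM and 30.9, 40.6 and 34.2 FPKM. Of 34 genes of glycolysis and the hypoxia response, Slc16a3, a lactate transporter, rose from 3.77, 5.95 and 4.61 FPKM to 11.0, 10.9 and 29.2 FPKM (log2 fold change 1.67, SE 0.40, limma adjusted p = 0.069), and none fell. Slc16a3 alone rose in this list, where 2.46% of all genes rose. Ldha, lactate dehydrogenase, at 259.7, 263 and 242 FPKM and 343, 433 and 666 FPKM, and Slc2a1, a glucose transporter, at 25.2, 20.9 and 19.4 FPKM and 35.0, 37.9 and 53.1 FPKM, were separate between groups with log2 fold changes of 0.86 and 0.93. After scaling, 7 of the 34 rose, among them Ldha (1.11) and Slc2a1 (1.18), as did 6 genes without PBOO 1, where Ldha had 1.07 and Slc2a1 1.04.

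Cytosolic ribosomal protein genes moved almost as a block. Of 77 tested genes, every PBOO sample lay below every normal sample in 76, against 34.9% of all genes tested. The median log2 fold change was -0.79, against -0.25 over all genes, yet only Rps9 and Rplp2 passed the 2-fold threshold. Their summed FPKM was 111461, 117394 and 118230 in normal and 81113, 63028 and 58625 in PBOO samples. Rplp2, of the ribosomal stalk, was at 78.4, 66.5 and 65.5 FPKM in normal and 47.4, 31.5 and 26.9 FPKM in PBOO samples (log2 fold change -1.03, SE 0.21, limma adjusted p = 0.0559), and Rps9, of the small subunit, at 114, 121 and 319 FPKM and 88.7, 75.9 and 40.2 FPKM (log2 fold change -1.34, SE 0.46, limma adjusted p = 0.11). Normal 3 was far above the other samples in Rps9, which did not pass without PBOO 3 or normal 3 (-0.997 and -0.86). Rplp2 did not pass without PBOO 2, PBOO 3 or normal 1 (-0.97, -0.85 and -0.94) or after scaling (-0.78). The number of genes that fell was 28 without PBOO 1 and 0 without PBOO 3, and after scaling the median was -0.54 and 1 fell. Genes of this family have many processed copies in the genome, which can take up fragments.

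Retinoid, drug and steroid metabolism had 6 of 35 genes that fell and 2 that rose, where 2.45% of all genes fell and 2.46% rose. The list had a median of -0.66. Crabp2, a carrier of retinoic acid, was at 194, 174 and 182 FPKM in normal and 97.2, 91.1 and 81.5 FPKM in PBOO samples (log2 fold change -1.03, SE 0.11, limma adjusted p = 0.0478), under 2-fold after scaling (-0.78) and without PBOO 3 or normal 1 (-0.96 and -0.99). Ces1d, a carboxylesterase, was at 16.9, 19.5 and 30.2 FPKM and 7.97, 4.35 and 4.70 FPKM (log2 fold change -1.96, SE 0.30, limma adjusted p = 0.0503), and fell in every fit that left out 1 sample. Rbp4, which carries retinol in blood, was at 11.0, 16.6 and 18.0 FPKM and 4.59, 9.38 and 6.92 FPKM (log2 fold change -1.14, -0.90 after scaling and -0.88 without PBOO 1). Hsd11b1, which regenerates active glucocorticoid, rose from 6.10, 19.5 and 20.9 FPKM to 23.2, 46.7 and 55.7 FPKM (log2 fold change 1.52, SE 0.53, limma adjusted p = 0.113), and Gsta2, a glutathione transferase, from 0.533, 0 and 0.00394 FPKM to 2.44, 1.20 and 2.33 FPKM. Hsd11b1 did not pass without PBOO 2, PBOO 3 or normal 1 (1.40, 1.27 and 0.95). Gsta4, of the same family, fell from 128, 95.5 and 155 FPKM to 53.1, 89.2 and 47.0 FPKM (log2 fold change -1.03), but not after scaling (-0.78) and not without PBOO 1, PBOO 3 or normal 3 (-0.93, -0.84 and -0.86). Cyp1a1 and Cyp2e1 were the other genes that fell, Cyp2e1 not after scaling (-2.89). The number that fell was 8 without PBOO 1, PBOO 2 or normal 1 and 3 without PBOO 3, and 2 after scaling. Aldh1a1, which makes retinoic acid, was at 13.2, 16.2 and 19.0 FPKM and 3.23, 13.3 and 9.58 FPKM, with overlap.

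Fat markers had the lowest median of all lists, -1.01, with 6 of 11 tested genes that fell and none that rose. Over all genes tested, 2.45% fell. Adipoq, the fat hormone adiponectin, was at 20.1, 18.3 and 28.6 FPKM in normal and 5.42, 10.1 and 9.89 FPKM in PBOO samples (log2 fold change -1.42, SE 0.28, limma adjusted p = 0.0551), and fell after scaling and without any 1 sample. Thrsp, a regulator of fat synthesis, was at 34.0, 10.9 and 8.404 FPKM and 3.69, 8.08 and 2.89 FPKM (log2 fold change -1.70, SE 0.58, limma adjusted p = 0.111), and Pck1, a key enzyme of gluconeogenesis and of glyceride synthesis in fat, at 4.77, 2.998 and 5.80 FPKM and 1.48, 2.21 and 2.01 FPKM (log2 fold change -1.18, SE 0.30, limma adjusted p = 0.0735). Fabp4, a fatty acid carrier also found in capillaries, was at 967, 865 and 1016 FPKM and 289, 450 and 797 FPKM (log2 fold change -1.01). Plin1, which coats fat droplets, was at 8.23, 2.65 and 4.93 FPKM and 1.70, 2.69 and 1.82 FPKM, with overlap. Cidec, another droplet protein, also fell, but not after scaling (-1.09). The summed FPKM of the list was 1018 to 1223 in normal samples and 403, 582 and 1062 in PBOO samples. After scaling, Adipoq and Thrsp still fell, while Pck1, Fabp4 and Plin1 were under 2-fold (-0.94, -0.76 and -0.95). Thrsp did not pass without PBOO 1 or PBOO 3 (-1.58 and -1.41), Pck1 without normal 3 (-0.98), Fabp4 without PBOO 1, PBOO 2, normal 1 or normal 3 (-0.66, -0.98, -0.997 and -0.96) and Plin1 without PBOO 1, PBOO 3, normal 1 or normal 3 (-1.07, -1.12, -0.80 and -1.17). The number of genes that fell was 6 without PBOO 2 or normal 2 and 2 without PBOO 1 or normal 3.

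Of 22 endothelial markers, 1 fell and none rose, where 2.45% of all genes fell and 2.46% rose. Their median was -0.13, or 0.12 after scaling. Pecam1 was at 46.1, 48.1 and 52.2 FPKM in normal and 47.7, 44.1 and 49.1 FPKM in PBOO samples, and Cdh5, the cadherin of endothelial junctions, at 16.8, 20.7 and 23.1 FPKM and 22.3, 21.8 and 21.9 FPKM. Sox17, a transcription factor of arterial endothelium, was at 6.88, 6.52 and 9.58 FPKM and 4.05, 3.10 and 3.67 FPKM (log2 fold change -1.05, SE 0.21, limma adjusted p = 0.0543), under 2-fold after scaling (-0.81) and not passing without PBOO 2 or normal 3 (-0.95 and -0.88). None of 5 red blood cell genes and none of 3 mesothelium genes passed. Hbb, a globin, was at 13.5, 425 and 376 FPKM and 199.7, 261 and 204 FPKM, and Msln, of the mesothelium, at 23.0, 23.5 and 18.7 FPKM and 18.5, 10 and 25.4 FPKM.

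**Figure D5:**
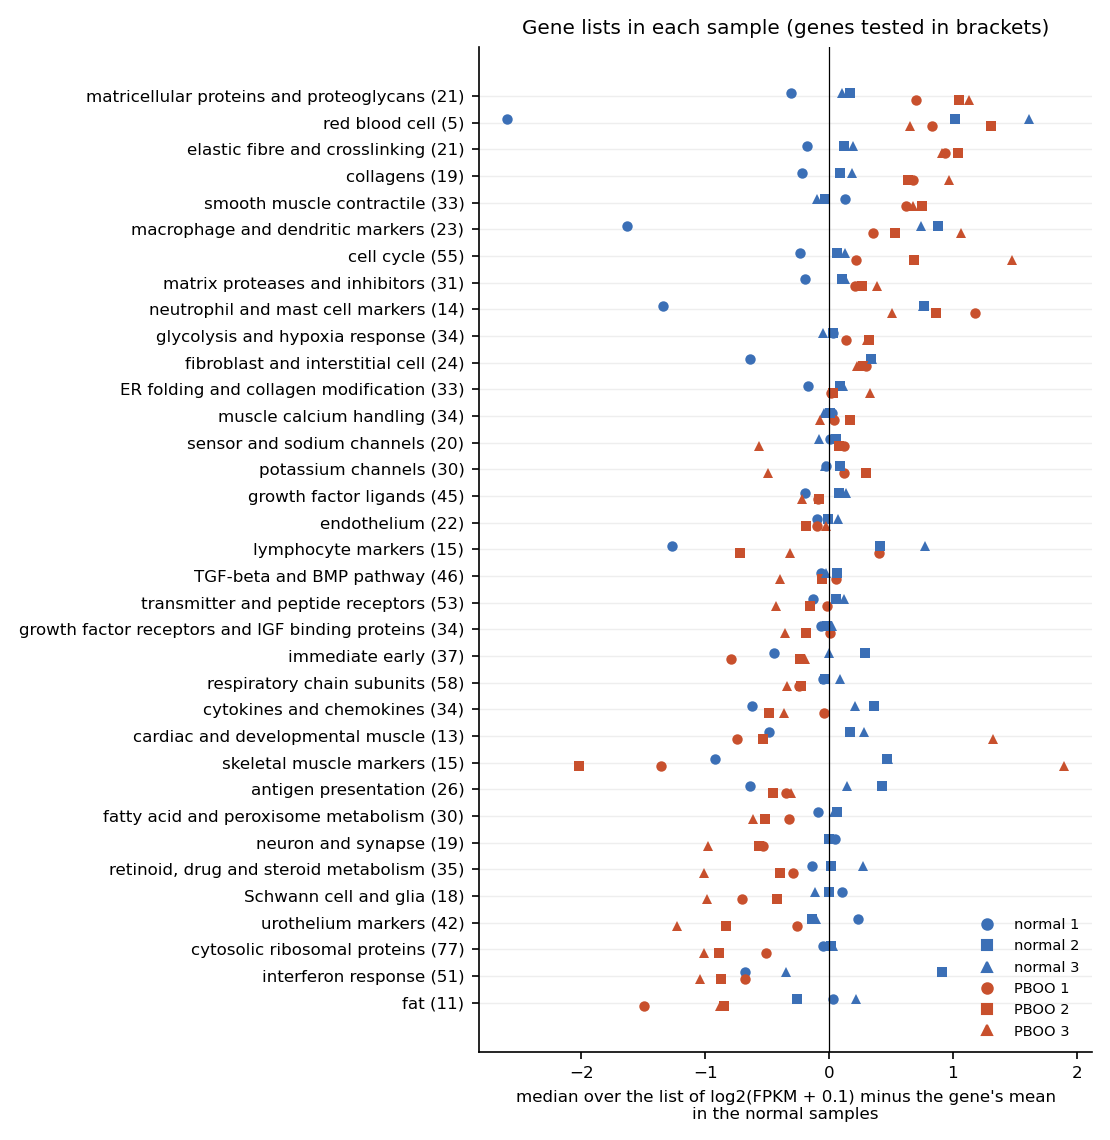
For each gene list, each sample's median deviation from the mean of the normal samples on the log2(FPKM + 0.1) scale, with normal samples in blue and PBOO samples in orange-red. The 3 PBOO samples lie above the 3 normal samples in the contractile, collagen, elastic fibre and matricellular lists and below them in the ribosomal protein, urothelium and fat lists, while normal 1 lies far to the left in the red blood cell and macrophage lists and normal 2 far to the right in the interferon list.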

How the data were processed

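RNA of rat bladder tissues was sequenced in 11 samples, and the 5 columns of week 5 samples were not used here. The authors deposited 1 table of FPKM, normalized by transcript length and library total, with 1 column per sample and 0 columns of no sample. The submitters' processing notes name bcl2fastq 2.0, HISAT2, StringTie, DESeq2, limma and mm10, a mouse build, although the gene symbols are of rat. The annotation, the strand setting and the depth are not given in the sources used here, so no counting interval can be had.

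Genes that averaged 0.5 FPKM or more in the 6 samples were fitted as log2(FPKM + 0.1) by group with limma 3.58.1 (lmFit, eBayes with trend, two-sided) in R 4.3.3, with Benjamini-Hochberg adjustment over all genes tested. Tables and plots were made with Python 3.11.15, pandas 2.3.3, numpy 2.4.6 and matplotlib 3.10.9. The fit was checked on simulated data. For a single gene, an exact permutation test of 3 against 3 samples cannot go below 0.1. The genes named are the 15 largest changes in each direction among genes that averaged 1 FPKM or more and had separate groups, up to 4 called genes per list and direction, and genes fixed for each list. Some genes that this rule names, or that complete a count, are not reported here. Genes that complete a count, and Cenpf, Bst2, Myl1 and Mb, were added after their values were seen. The comparison and the 37 gene lists were chosen with earlier results of these data known. Of the genes tested, 8925 of 11320 matched a RefSeq promoter by symbol. The 14 alternatives changed the pseudocount, the filter, the scaling, the trend or the replicate block, or left out 1 sample.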

Additional observations from a re-analysis of the deposited data

How the results depend on the processing

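The number of genes that rose, 278 with the settings of the report, lay between 200 and 409 under the alternatives that kept all 6 samples, and between 172 and 387 when 1 sample was left out. The number that fell, 277, was 136 with a pseudocount of 1 FPKM, 121 after median-ratio scaling and 147 after quantile normalization, and it lay between 180 and 637 when 1 sample was left out. The 42 genes past the adjusted threshold of limma were near its edge. None passed without a filter on low values, after median-ratio scaling or without the trend, where limma gave 3811, 2349 and 3404 genes at an unadjusted p under 0.05, and 85 passed after quantile normalization. Leaving out 1 sample gave between 0 and 719 genes past it, 719 without PBOO 1 and 20 without normal 1. Without PBOO 2, PBOO 3, normal 2 or normal 3 none passed, with 2358, 2800, 2418 and 2317 genes at an unadjusted p under 0.05.

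Whether the replicate numbers pair the samples was not settled. Deviations from the group means of samples with the same number correlated at 0.154, -0.024 and 0.232 for numbers 1, 2 and 3. PBOO 1 and PBOO 3 correlated best with the normal sample of their own number, but PBOO 2 with normal 1 (0.094). With the replicate number as a block, 305 genes rose, 292 fell and 55 passed the adjusted threshold, and 534 of the 555 called genes were shared. Of the 42 genes past the adjusted threshold without the block, 26 were shared, and the smallest adjusted p of limma with the block was 0.00837.

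Of 125 called genes named, 78 stayed past the thresholds in the same direction under all 14 alternatives, and none turned its direction. Genes that were not called did turn. After median-ratio scaling these were Acadm (0.041), Ccl2 (0.079), Cd74 (0.17), Jun (0.16), Kcnma1 (0.24), Ndufs1 (0.084) and Pecam1 (0.20), after quantile normalization Ccl2 (0.025), Cd74 (0.000), Jun (0.066), Kcnma1 (0.23), Pecam1 (0.10) and Tagln (-0.50), and with a pseudocount of 1 FPKM Kcnma1 (0.001). In fits that left out 1 sample, values lay for Ccl2 between -0.69 and 0.37 (turned without PBOO 1 or normal 2), Cd3e between -0.86 and 0.27 (turned without PBOO 2 or normal 3), Cd74 between -0.48 and 0.19 (turned without PBOO 3, normal 2 or normal 3), Csf1r between -0.24 and 1.33 (turned without normal 1), Hbb between -0.86 and 1.62 (turned without normal 1), Jun between -0.56 and 0.35 (turned without PBOO 1, normal 2 or normal 3) and Kcnma1 between -0.19 and 0.24 (turned without PBOO 3 or normal 1). In the same fits, they lay for Msln between -0.66 and 0.007 (turned without PBOO 2), Mx1 between -1.09 and 0.75 (turned without normal 2), Pdgfra between -0.33 and 0.41 (turned without normal 1), RT1-Ba between -0.30 and 0.69 (turned without normal 1), RT1-Da between -0.44 and 0.44 (turned without normal 1) and S100a8 between -2.02 and 0.53 (turned without PBOO 1, normal 2 or normal 3). All these values are log2 fold changes, and the cause was not tested. Depth is unknown, and 3 samples a group limit the precision.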

Other observations

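Of the 42 genes that passed the adjusted threshold, 25 lay outside the rule for named genes, and those given here were chosen after their values were seen. Slit3, a secreted guidance protein, was at 9.01, 13.4 and 13.1 FPKM in normal and 29.0, 31.4 and 42.9 FPKM in PBOO samples (log2 fold change 1.53, SE 0.21, limma adjusted p = 0.0483). Itga1, the integrin chain that binds collagen in smooth muscle, was at 42.1, 44.5 and 40.3 FPKM and 83.5, 108 and 112 FPKM (log2 fold change 1.24, SE 0.13, limma adjusted p = 0.0478), and Pxdn, the peroxidase that crosslinks basement membrane collagen, at 11.9, 13.5 and 13.6 FPKM and 29.3, 39.6 and 52.0 FPKM (log2 fold change 1.59, SE 0.21, limma adjusted p = 0.0483). Il17b, a cytokine, rose from 2.27, 1.87 and 2.46 FPKM to 7.4, 9.76 and 15.8 FPKM (log2 fold change 2.21, SE 0.29, limma adjusted p = 0.0483), and Bcat1, which breaks down branched-chain amino acids in the cytosol, from 9.77, 10.4 and 12.8 FPKM to 24.4, 42.4 and 41.6 FPKM (log2 fold change 1.67, SE 0.24, limma adjusted p = 0.0483). Each of these 5 genes rose after scaling and in all 6 fits that left out 1 sample.

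Among those that fell were Nrn1, a neuritin of neurons, from 5.36, 5.63 and 3.51 FPKM to 1.21, 1.54 and 1.09 FPKM (log2 fold change -1.82, SE 0.26, limma adjusted p = 0.0483), and Olig1, a transcription factor best known from the glia of the brain, from 6.33, 6.49 and 4.96 FPKM to 2.28, 1.96 and 1.95 FPKM (log2 fold change -1.47, SE 0.19, limma adjusted p = 0.0483). Asb4, an ankyrin repeat protein, was at 7.14, 7.23 and 6.69 FPKM and 2.50, 3.04 and 2.43 FPKM (log2 fold change -1.38, SE 0.17, limma adjusted p = 0.0483), with close samples in both groups. These 3 genes also fell after scaling and in all 6 fits that left out 1 sample. Tfpi, the tissue factor pathway inhibitor, fell from 45.3, 34.2 and 41.0 FPKM to 18.2, 20.4 and 20.2 FPKM (log2 fold change -1.02, SE 0.13, limma adjusted p = 0.0483), but not after scaling (-0.77) and not without PBOO 1 or normal 1 (-0.97 and -0.93).

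Among genes that fell with overlapping groups, the 2 largest changes were of loci without a gene name, RGD1309362 with 7.61, 31.9 and 17.0 FPKM in normal and 0, 9.21 and 0 FPKM in PBOO samples (log2 fold change -5.16) and RGD1359290 with 207, 275 and 105 FPKM and 7.82, 154 and 3.59 FPKM (log2 fold change -3.46).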
